A study of Mus musculus with 24 samples.

Results

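Fear conditioning was compared with exposure to the same chamber in mice that had all received CI-994 (HDACi in the group names), a drug that blocks the class I histone deacetylases, by the genome-wide level of H3K27ac in neuronal nuclei of the dentate gyrus. The comparison took in every peak of the deposited count matrix in the 6 libraries that the labels place in those groups, of 12 H3K27ac libraries and 24 samples in all. The HDACi-CFC group (3 libraries) held 12-week-old male C57BL/6J mice injected intraperitoneally with CI-994 at 30 mg/kg 1 h before contextual fear conditioning, which was 3 min of habituation in a chamber and then 2 foot shocks of 1 s at 0.2 mA, 29 s apart. The HDACi-Context group (3 libraries) got the same injection and as long in the chamber with no shock. Veh-CFC and Veh-Context mice (3 libraries each) were of the same strain, sex and age and got the vehicle alone, which was DMSO, Kolliphor and saline. They are used here as a second measurement of the shock effect, and their libraries also share the fit that gave the calls under CI-994. All mice were killed 1 h after the test, and nuclei carrying the neuronal protein NeuN were sorted from the dentate gyrus, although sample titles name the hippocampus. Conditioning was assigned by cage, per the labels, and the effects of the shock and of the cage cannot be told apart, while the drug was assigned at random. The labels number the replicates without naming the animals behind them, so p-values measure only the spread between these libraries.

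H3K27ac is the acetylation of lysine 27 on histone H3. The acetyltransferases CBP and p300 place it at active promoters and enhancers, and class I deacetylases such as HDAC1, HDAC2 and HDAC3 remove it. The dentate gyrus is built mainly of granule neurons, the first station of the hippocampal circuit, of which a sparse set switches on immediate early genes such as Fos and Arc during learning. Inhibitors of class I deacetylases are known for strengthening the memory of a context in mice when given near training.

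Each of the 144154 peaks carried a count of reads in each library. The totals lay between 10153795 and 14132205 in HDACi-CFC libraries and between 13533876 and 16734757 in HDACi-Context libraries, with 7222654 to 9666039 in Veh-CFC and 6639158 to 13711438 in Veh-Context libraries. No 2 replicates matched within sampling noise, since the chi-square of their counts over its degrees of freedom was 1.35 at the lowest. A peak is called a promoter peak here if the nearer edge was no more than 1000 bp from the transcription start site (TSS) of the gene named beside it, and the other peaks are named for the gene with the nearest TSS. Differences are log2 differences between groups, with their standard error (SE), from edgeR's quasi-likelihood test on all 12 libraries, and a call is a Benjamini-Hochberg adjusted p under 0.05 over all peaks. CPM stands for a peak's counts relative to the scaled library total. No spike-in was described, so every rise or fall is relative to the other peaks.

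Under CI-994, libraries of fear-conditioned mice had relatively more H3K27ac reads at promoters and in gene-dense regions and fewer far from genes. Their reads were also more concentrated, with 13.8% of counts in the 1000 highest peaks, against 10.6% in HDACi-Context libraries. The part of this concentration in the calls was not tested. Of 144014 peaks tested, 29069 (20.2%) were called higher and 25571 (17.8%) lower in HDACi-CFC than in HDACi-Context libraries, 37.9% in all, and 47.2% had an unadjusted p under 0.05. The libraries of both groups did not overlap at 48.9% of peaks. Higher peaks had a median absolute log2 difference of 0.99, and 49.2% of them changed by more than 2-fold. Lower peaks had a median of 0.73, and 16.7% of them passed 2-fold. The split of calls followed the scaling: 53.2% of calls were higher as reported, 38.1% with library totals, 83.3% when scaled on peaks of the control state and 14.6% when scaled on promoter peaks, settings that moved the median of all peaks from -0.05 to -0.18, 0.20 and -0.54. There were 15699 lower peaks by DESeq2, 16401 without HDACi-Context replicate 2 and 16573 without HDACi-Context replicate 3.

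Promoters showed the rise most plainly. Promoter peaks held 25.3%, 25.2% and 25.4% of all counts in the HDACi-CFC libraries, against 19.6%, 19.1% and 18.3% in the HDACi-Context libraries. Every conditioned library thus lay above every context library, and the mean share was 25.3% ± 0.104 in HDACi-CFC and 19.01% ± 0.659 in HDACi-Context libraries (SD, n = 3 each; difference 6.28 percentage points; exact permutation test, two-sided, p = 0.1, the smallest that 3 against 3 can give, 0.118 adjusted over 13 library measures). In vehicle-treated mice the mean share was 25.8% in Veh-CFC and 21.9% in Veh-Context libraries, so the conditioned groups lay close to each other and the HDACi-Context libraries were the lowest of the 12. Of 21487 promoter peaks, 9740 (45.3%) were called higher and 434 (2.02%) lower, with a median log2 difference of 0.42. With factors from promoter peaks alone, 4455 were called higher and 4645 lower. The lower promoter peaks were 258 and 261 without HDACi-CFC replicate 1 or 3, and 219 and 195 without HDACi-Context replicate 2 or 3. Of the 122527 other peaks, 19329 (15.8%) were higher and 25137 (20.5%) lower, with a median of -0.14, and the lower ones were 16182 and 16378 without HDACi-Context replicate 2 or 3.

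The chromatin state that the authors deposited beside each peak showed the same order. Of 15611 peaks of the strong promoter state, 7010 were called higher and 255 lower, against 3174 and 2882 with factors from promoter peaks. Active enhancer peaks followed, with 12024 higher and 5059 lower of 41914 (median 0.11, but -0.02 with library totals and -0.38 with factors from promoter peaks), and their share of counts was 50.0% ± 0.293 in HDACi-CFC and 45.0% ± 1.29 in HDACi-Context libraries (n = 3 each, SD; p = 0.1 by exact permutation). Peaks of the primed enhancer state, which marks enhancers without full activity, had 3697 higher and 6966 lower of 33866, but 6516 higher and 2090 lower with factors from control-state peaks. Peaks of the control state had 4761 higher and 12590 lower of 46429, but 7415 higher and 5049 lower with their own factors, and held 18.8% ± 0.422 of counts in HDACi-CFC and 23.6% ± 0.938 in HDACi-Context libraries (n = 3 each, SD; p = 0.1 by exact permutation). Peaks in repressed regions had 1568 higher and 697 lower of 6113, while their share of counts, 2.02% in HDACi-CFC and 2.01% in HDACi-Context libraries, did not part the groups. Strong-promoter peaks outside promoters still had 1137 higher and 145 lower of 3036, and control-state peaks at promoters had 484 higher and 138 lower of 1887.

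**Figure D1:**
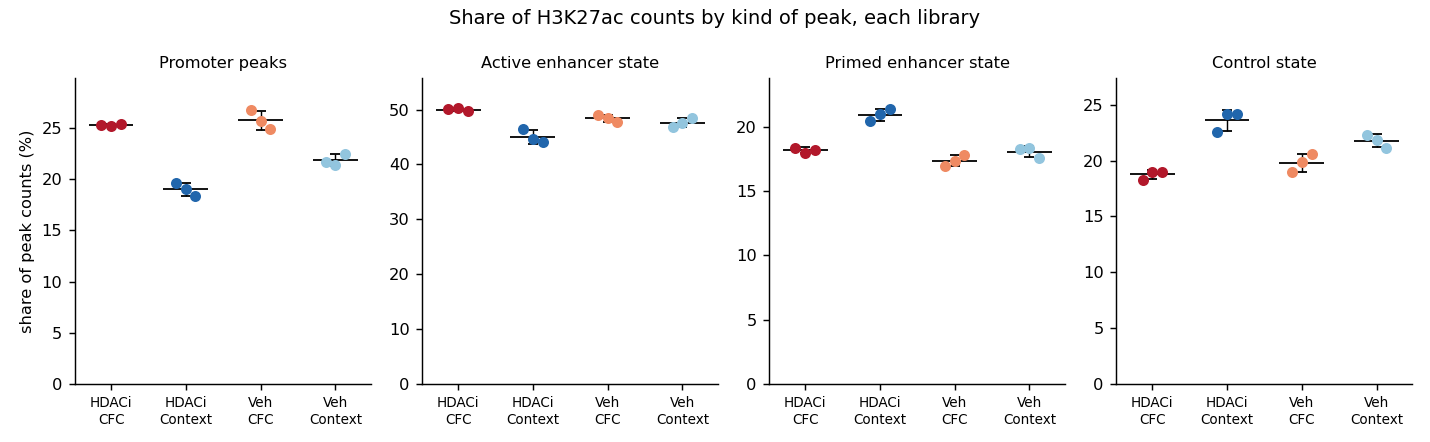
Share of all peak counts (%) held by promoter peaks and by peaks of 3 chromatin states in each library; points are libraries, bars the mean and SD of 3. Promoter peaks held 25.2 to 25.4% in HDACi-CFC libraries and 18.3 to 19.6% in HDACi-Context libraries, and control-state peaks were lower in the conditioned libraries.

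Distance from a TSS graded the difference without a step. Among the 5907 peaks that spanned a TSS, 3225 (54.6%) were higher and 159 lower. From 5 to 20 kb away, 23.0% were higher and 11.7% lower. From 20 to 100 kb, 13.9% were higher and 19.6% lower, so that the balance turned. Beyond 100 kb, 1103 of 26122 peaks (4.22%) were higher and 10251 (39.2%) lower, with a median of -0.43. Broad peaks rose more often than narrow ones: 1377 of 2344 peaks over 10 kb were higher and 95 lower, against 9142 higher and 7291 lower of 59496 peaks of up to 1 kb. Intergenic peaks had 5620 higher and 11295 lower of 43435, and exonic peaks 1285 higher and 142 lower of 2549.

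The number of protein-coding genes around a peak, a class chosen after these values were seen, graded it as well. Of the peaks with over 20 RefSeq genes centred within 500 kb, 11436 of 25611 (44.7%) were higher and 766 lower, with a median of 0.50. Of those with 0 to 3 genes, 1342 of 28237 (4.75%) were higher and 11912 (42.2%) lower, with a median of -0.45. The order was kept among peaks away from promoters, where the medians were 0.41 with over 20 genes and -0.48 with 0 to 3 genes. At promoters the median was positive at both ends, 0.67 with over 20 genes and 0.24 with 0 to 3 genes. Peaks of a single state were graded too: control-state peaks had a median of 0.27 in the densest and -0.62 in the sparsest regions, and active enhancer peaks had 0.70 and -0.29.

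**Figure D2:**
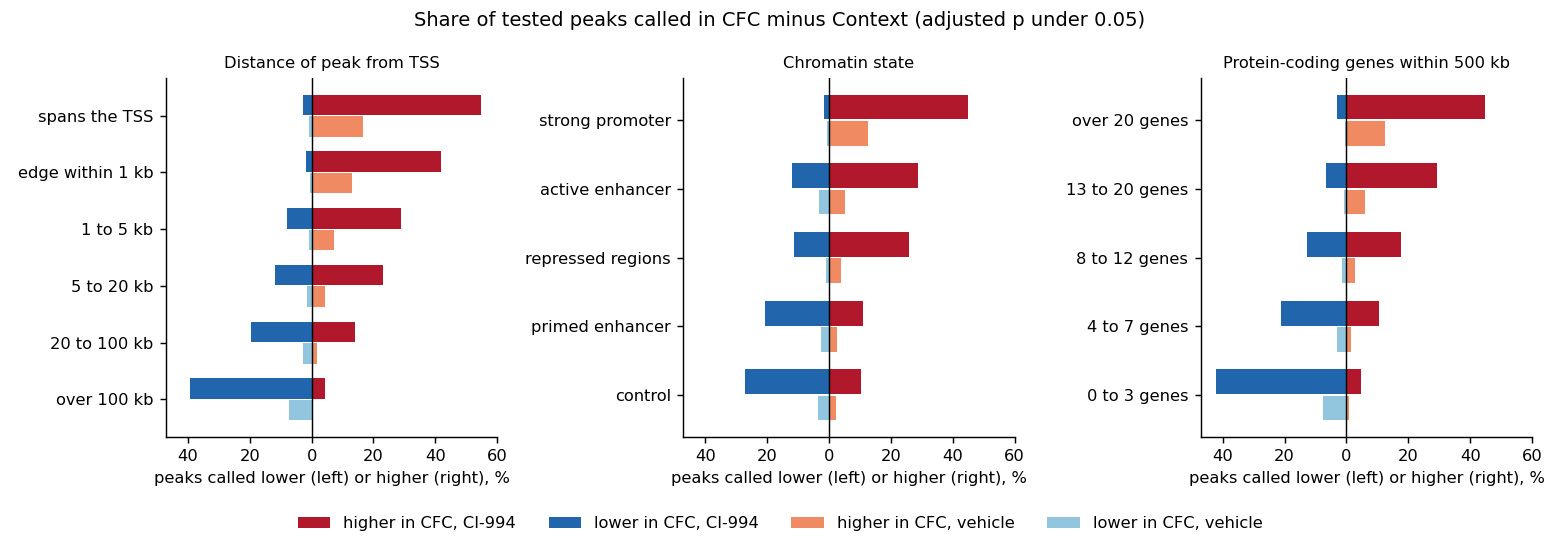
Percent of tested peaks called lower (left of 0) or higher (right of 0) in CFC minus Context, by distance from the TSS, chromatin state and number of protein-coding genes within 500 kb, under CI-994 (darker, upper bar) and vehicle (paler, lower bar). Under CI-994, 54.6% of TSS-spanning peaks were higher and 39.2% of peaks over 100 kb away were lower, and the vehicle bars are shorter.

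Each of the 14154 genes with a tested promoter peak was then represented by its highest one, which for genes with several starts need not be the one at the start best known. Of these, 6925 (48.9%) were called higher and 293 (2.07%) lower, and in 57.1% every HDACi-CFC library lay above every HDACi-Context library. The median was 0.44. Gene groups are read against these figures, and a count near them says nothing about a group. With factors from promoter peaks the median of all promoter genes was -0.05. Among promoter genes split by level into 5 equal classes, the share called higher was 41.2% in the lowest, 39.8% in the second and 66.9% in the highest class. The median log2 differences of these classes were 0.63, 0.40 and 0.48, so the share called did not follow the size of the rise.

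Cell type markers were read beside the labelled sort, without a verdict on its purity. Granule neuron markers all had a promoter peak, with 9 of 18 higher and 2 lower (median 0.37, but -0.12 with factors from promoter peaks). Prox1, which defines granule neurons, had 161.1, 218.0 and 205.1 CPM in HDACi-CFC libraries, against 94.9, 109.2 and 88.3 CPM in HDACi-Context libraries (1.00 ± 0.109, SE; edgeR adjusted p = 1.9e-09). Bcl11b and Fam163b rose by 1.21 and 1.20, while Tdo2 fell by 0.79 and Dock10 by 0.33 on the log2 scale. The call on Dock10 was lost without any of HDACi-CFC replicates 1 and 3, HDACi-Context replicates 2 and 3 and Veh-Context replicate 3, with an adjusted p of up to 0.24. Rbfox3, which encodes NeuN, had 271.8, 278.4 and 280.4 CPM in HDACi-CFC libraries, against 156.7, 135.7 and 110.0 CPM in HDACi-Context libraries (1.05 ± 0.113, SE; edgeR adjusted p = 3.1e-09). The pan-neuronal list as a whole had 6 of 13 higher (median 0.26, but -0.23 with factors from promoter peaks).

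Markers of glia were present and moved with the groups. Of 15 oligodendrocyte promoters, 11 were higher and none lower (median 1.11), and their summed level was 345 to 375 CPM in HDACi-CFC and 232 to 250 CPM in HDACi-Context libraries. Microglia markers had 8 of 9 higher and P2ry12 lower (median 1.46), with sums of 44.4 to 44.6 CPM in HDACi-CFC and 29.5 to 35.1 CPM in HDACi-Context libraries, while Aif1, C1qa, Trem2, Itgam, Ctss, Cd68 and Fcrls had no tested promoter peak. Astrocyte markers had 8 of 13 higher (median 0.42, but -0.06 with factors from promoter peaks), with sums of 173 to 198 CPM in HDACi-CFC and 131 to 143 CPM in HDACi-Context libraries. Spi1, the microglial master factor, had 2.39, 4.26 and 2.35 CPM in HDACi-CFC libraries, against 0.765, 0.522 and 0.272 CPM in HDACi-Context libraries, so its counts are low. Mbp and Mag, of the myelin sheath, rose by 0.78 ± 0.103 and 2.08 ± 0.255. The call on P2ry12, which fell by 0.35 on the log2 scale, and that on Gfap, which rose by 0.67, were unstable. P2ry12 lost its call without HDACi-CFC replicate 1 or 2, HDACi-Context replicate 2 or 3 or Veh-Context replicate 3 (adjusted p of up to 0.16), and Gfap without HDACi-CFC replicate 3 or HDACi-Context replicate 3 (up to 0.11). In sorted nuclei measured in bulk, the number of nuclei of a type and the level in each cannot be told apart. The part of these markers in the gene groups that follow was not tested. CA pyramidal, interneuron and oligodendrocyte precursor markers had 7 of 10, 4 of 6 and 3 of 8 higher, and endothelial and mural markers 1 of 5, with none lower in these 4 lists. In that order the lists name 16, 19, 10 and 15 genes, and the rest had no tested promoter peak.

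Immediate early transcription factors are switched on in neurons within minutes of firing. Of 22 measured promoters 20 were called higher and 1 lower, and the median was 0.86. Fosb, a subunit of the AP-1 factor, had 13.3, 12.7 and 13.9 CPM in HDACi-CFC libraries, against 4.45, 2.49 and 2.11 CPM in HDACi-Context libraries. The conditioned libraries were all higher, for a log2 difference of 2.15 ± 0.257 (SE; edgeR adjusted p = 3.9e-06), while a lower peak on the other side of the start was not called (0.47; edgeR adjusted p = 0.092). Nr4a2, an orphan nuclear receptor, had 10.1, 7.90 and 8.57 CPM in HDACi-CFC libraries, against 1.25, 0.985 and 0.748 CPM in HDACi-Context libraries. Its log2 difference was 3.15 ± 0.255 (SE; edgeR adjusted p = 5.3e-12). That peak, chr2:57115093-57116267, shared no base with the window around the RefSeq start of Nr4a2, chr2:57123954-57124253. The pair of lower Nr4a2 promoter peaks beside that start, chr2:57122436-57123428 and chr2:57124429-57124760, were not called (-0.29 and 0.51; edgeR adjusted p = 0.38 and 0.42).

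Junb, another AP-1 subunit, had 11.4, 9.36 and 12.1 CPM in HDACi-CFC libraries, against 4.52, 4.46 and 3.67 CPM in HDACi-Context libraries, with no overlap. The difference was 1.38 ± 0.161 (SE; edgeR adjusted p = 7.7e-09). Nr4a1, the sister receptor of Nr4a2, had 14.1, 12.1 and 13.6 CPM in HDACi-CFC libraries, against 6.40, 4.17 and 3.74 CPM in HDACi-Context libraries. It rose by 1.49 ± 0.190 (SE; edgeR adjusted p = 2e-07). Atf3, a stress- and activity-induced factor, rose by 3.29 ± 0.403 (SE; edgeR adjusted p = 2.2e-08) at a low level, with 2.77 to 3.70 CPM in HDACi-CFC and 0.278 to 0.408 CPM in HDACi-Context libraries.

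Fos itself is the most used marker of recent firing. Its highest promoter peak had 10.4, 8.63 and 11.01 CPM in HDACi-CFC libraries, against 6.60, 6.61 and 6.33 CPM in HDACi-Context libraries, and the log2 difference was 0.63 ± 0.165 (SE; edgeR adjusted p = 0.0026), against 1.096 ± 0.275 at its other promoter peak (SE; edgeR adjusted p = 0.0017). Egr1, a zinc-finger factor, rose by 0.76 ± 0.116 at an upstream peak and by 2.02 ± 0.212 at a peak over an exon (SE; edgeR adjusted p = 1.7e-06 and 1.3e-08), and all 6 peaks named for it were called higher. Npas4, a factor that neuronal calcium induces, rose by 0.49 ± 0.115 at its higher, upstream peak and by 1.34 ± 0.218 at the strong-promoter peak chr19:4988341-4989782 (SE; edgeR adjusted p = 8.7e-04 and 8.4e-06). Egr4 was the exception, with 1.16, 1.04 and 0.840 CPM in HDACi-CFC libraries, against 1.81, 2.09 and 2.38 CPM in HDACi-Context libraries. That peak fell by 1.03 on the log2 scale (SE 0.316; edgeR adjusted p = 0.0089, and up to 0.049 with a library left out), at a low level. Of the 5 peaks named for Egr4, 1 was higher, 1 lower and 3 were not called.

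**Figure D3:**
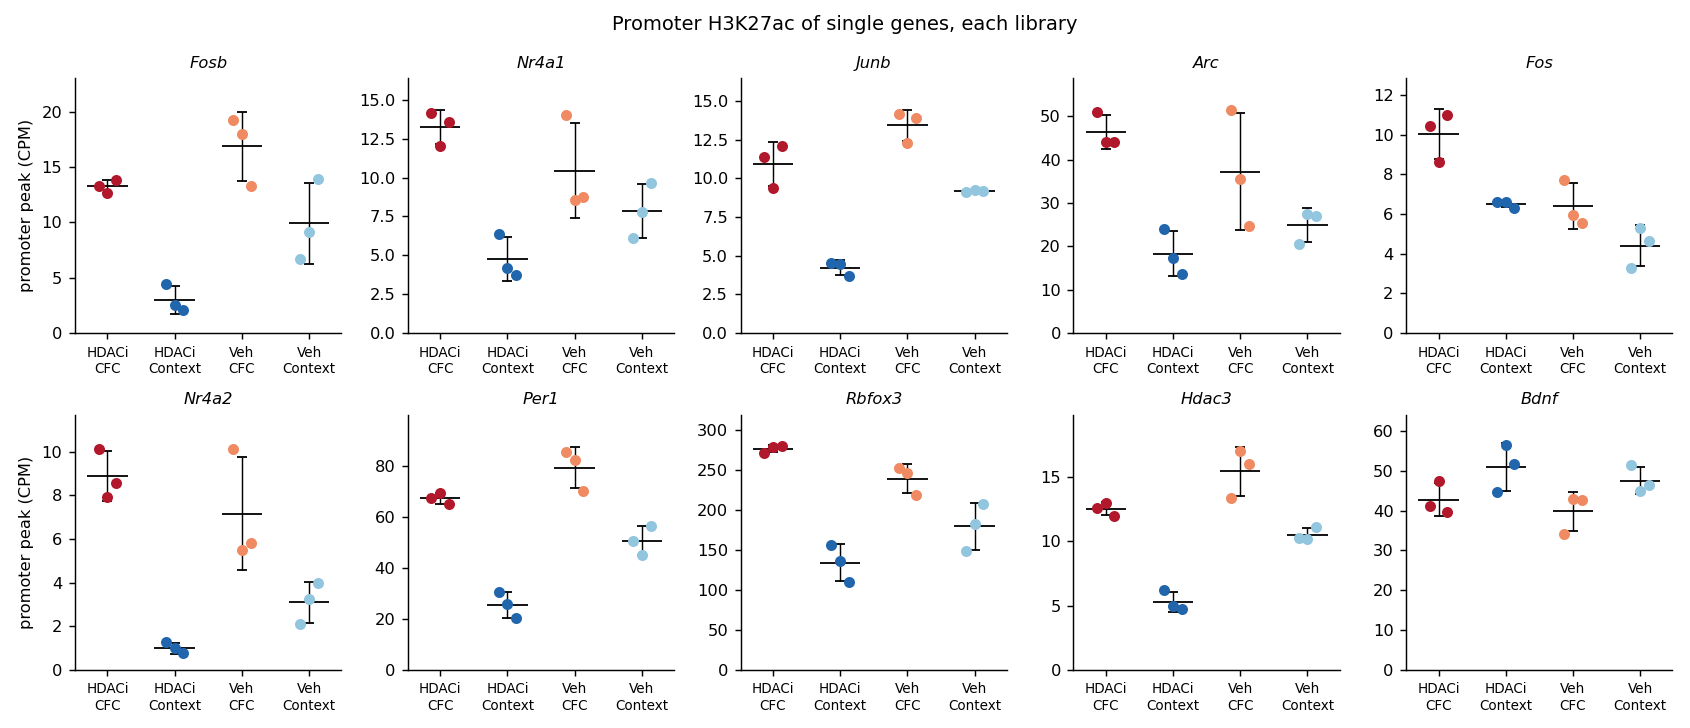
CPM of the promoter peak of 10 genes in each library, with the mean and SD of 3 libraries. For Fosb, Nr4a1, Junb, Arc, Fos, Nr4a2, Per1, Rbfox3 and Hdac3 the 3 HDACi-CFC libraries lie above the 3 HDACi-Context libraries, and at the highest promoter peak of Bdnf the groups overlap.

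The promoter sequences of Fos, Junb, Per1 and Bdnf are shown, from 7 such genes, because their peaks covered at least 100 of the 300 bases around a RefSeq start (250 before to 50 after) and because 3 of those peaks rose and that of Bdnf was not called. They are credited to RefSeq on GRCm38.p6 and read 5′ to 3′ along the gene. The Fos window is chr12:85473640-85473939 on the + strand, of which the peak chr12:85471038-85473824 covered 185 bases. The Junb window is chr8:84978699-84978998 on the - strand, with 100 bases in the peak. The Per1 window, chr11:69098699-69098998 on the + strand, and the Bdnf window, chr2:109709133-109709432 on the + strand, lay wholly within their peaks. Capitals mark matches, on either strand, to 8 motifs. These were the cyclic AMP response element with the letters TGACGTCA, the AP-1 element with TGANTCA, the EGR element with GCGTGGGCG, the SP1 box with GGGCGG, the E-box with CACGTG, the CCAAT box, the TATA box with TATAAA and the NRF1 element by name.
Fos: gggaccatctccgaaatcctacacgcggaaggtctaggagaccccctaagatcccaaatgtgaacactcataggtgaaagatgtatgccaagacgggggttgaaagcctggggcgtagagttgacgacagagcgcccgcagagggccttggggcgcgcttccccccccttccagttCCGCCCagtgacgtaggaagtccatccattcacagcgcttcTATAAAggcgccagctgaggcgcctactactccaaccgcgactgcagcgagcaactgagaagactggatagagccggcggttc
Junb: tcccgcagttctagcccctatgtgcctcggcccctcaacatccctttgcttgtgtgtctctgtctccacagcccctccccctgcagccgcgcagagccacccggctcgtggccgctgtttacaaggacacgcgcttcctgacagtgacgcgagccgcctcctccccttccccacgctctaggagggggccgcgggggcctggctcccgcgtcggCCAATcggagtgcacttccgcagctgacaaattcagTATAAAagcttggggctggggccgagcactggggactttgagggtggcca
Per1: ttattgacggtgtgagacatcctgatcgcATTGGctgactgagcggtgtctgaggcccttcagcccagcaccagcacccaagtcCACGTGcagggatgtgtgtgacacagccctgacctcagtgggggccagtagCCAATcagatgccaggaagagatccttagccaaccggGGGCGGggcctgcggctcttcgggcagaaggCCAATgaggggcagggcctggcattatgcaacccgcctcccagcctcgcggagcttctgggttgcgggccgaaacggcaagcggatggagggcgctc
Bdnf: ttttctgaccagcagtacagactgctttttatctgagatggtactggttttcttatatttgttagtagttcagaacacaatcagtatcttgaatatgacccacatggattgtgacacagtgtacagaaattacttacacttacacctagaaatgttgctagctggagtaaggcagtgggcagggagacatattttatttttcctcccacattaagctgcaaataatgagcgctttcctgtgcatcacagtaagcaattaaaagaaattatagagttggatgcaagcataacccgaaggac
The Fos window held an SP1 match 74 bases and a TATAAA 33 bases before the start. The Junb window held CCAAT 36 bases before the start and TATAAA at it. These Junb sites and the Fos TATAAA lay outside the bases that the peaks covered, while the Fos SP1 match lay within them. Per1 had CCAAT matches at 221, 115 and 47 bases, an E-box at 166 bases and an SP1 match at 78 bases before the start. The Bdnf window held none of the 8. Over all 32851 windows of the RefSeq table, 37.4% held CCAAT, 35.7% the SP1 letters, 13.6% TATAAA, 7.81% the AP-1 letters, 7.15% the E-box, 4.6% the NRF1 letters, 1.79% the cyclic AMP response element and 0.612% the EGR letters. A comparison of these shares between higher, lower and unchanged promoters is void, because only 76.5% of the promoter genes had a window in the table, under the 80% needed.

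Activity-regulated effectors, the proteins that act at synapses after induction, had 17 of 28 promoters higher and 1 lower, with a median of 0.66. Arc, which governs the removal of AMPA receptors, had 50.9, 44.2 and 44.0 CPM in HDACi-CFC libraries, against 24.0, 17.4 and 13.6 CPM in HDACi-Context libraries. Its difference was 1.34 ± 0.255 (SE; edgeR adjusted p = 0.002), and 4 of the 6 peaks named for it were higher. Nrn1 (neuritin, a growth-promoting surface protein) rose by 1.11 ± 0.104, Synpo (synaptopodin, of the spine apparatus) by 1.11 ± 0.105 and the phosphatase gene Dusp4 by 1.07 ± 0.115 (SE; all edgeR adjusted p at or under 1.6e-09). Crem, which encodes a repressor of cyclic AMP-driven genes, fell by 0.37 on the log2 scale (SE 0.141; edgeR adjusted p = 0.033), a call lost without HDACi-CFC replicate 1 or 2, HDACi-Context replicate 2 or 3 or Veh-Context replicate 3, with an adjusted p of up to 0.15.

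Bdnf, the neurotrophin most tied to memory and a gene with several starts, had 6 promoter peaks that did not move alike. The one over a start further upstream, chr2:109672506-109677247, of the strong promoter state, had 25.9, 29.3 and 28.6 CPM in HDACi-CFC libraries, against 19.1, 19.4 and 17.3 CPM in HDACi-Context libraries. It rose by 0.59 ± 0.118 (SE; edgeR adjusted p = 1.5e-04) and is the 1 higher of the 26 peaks named for Bdnf, of which 15 were lower. The highest promoter peak, chr2:109708274-109715606, in an intron and of the active enhancer state, had 41.3, 47.4 and 39.6 CPM in HDACi-CFC libraries, against 44.6, 56.6 and 51.8 CPM in HDACi-Context libraries. The ranges overlapped there, and the difference was -0.26 ± 0.116 (SE; edgeR adjusted p = 0.072, and 0.0041 with library totals). The other 4 were not called. Homer1, a scaffold whose short form is induced by activity, had 25.9, 23.8 and 27.7 CPM in HDACi-CFC libraries and 22.0, 25.9 and 24.2 CPM in HDACi-Context libraries. Its groups overlapped (difference 0.10 ± 0.120, SE; edgeR adjusted p = 0.51), and 5 of its 9 peaks were lower with none higher.

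Synaptic lists hold promoters of high level, so their counts are read beside the 66.9% of the highest level class as well as the 48.9% of all. Glutamate receptors had 17 of 20 promoters higher and none lower (median 0.71). Grin1, the obligatory NMDA receptor subunit, had 9.93, 14.0 and 12.0 CPM in HDACi-CFC libraries, against 6.33, 4.06 and 3.20 CPM in HDACi-Context libraries (log2 difference 1.40 ± 0.175, SE; edgeR adjusted p = 4.2e-08). Grin2b rose by 1.49 ± 0.176 and the metabotropic receptor gene Grm2 by 1.49 ± 0.162 (SE; edgeR adjusted p = 1.4e-08 and 6.5e-08). Postsynaptic scaffolds had 16 of 22 higher and none lower (median 0.66). With factors from promoter peaks, glutamate receptors had 7 higher and 2 lower (median 0.23) and scaffolds 10 higher and 3 lower (median 0.17). Dlg4, which encodes the scaffold PSD-95, had 64.7, 70.7 and 67.8 CPM in HDACi-CFC libraries, against 37.6, 36.5 and 26.1 CPM in HDACi-Context libraries, with no overlap (log2 difference 1.02 ± 0.117, SE; edgeR adjusted p = 6.2e-09).

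On the presynaptic side 21 of 27 promoters were higher and none lower (median 0.69), against 13 higher and 4 lower with factors from promoter peaks (median 0.21). Slc17a7, the vesicular glutamate transporter of granule and pyramidal neurons, had 100.6, 116.2 and 115.3 CPM in HDACi-CFC libraries, against 48.3, 42.1 and 27.9 CPM in HDACi-Context libraries (log2 difference 1.49 ± 0.135, SE; edgeR adjusted p = 1.3e-09). Syt7, a calcium sensor of release, rose by 1.06 ± 0.108 (SE; edgeR adjusted p = 4e-10). Voltage-gated channels had 32 of 45 higher and none lower (median 0.63), against 18 higher and 9 lower with factors from promoter peaks (median 0.15), among them Kcnip3 and Kcnip2, which encode partners of potassium channels, at 1.26 and 1.17. GABA receptors and their partners had 6 of 15 higher (median 0.23, but -0.26 with factors from promoter peaks), against 48.9% of all promoter genes and 66.9% of the highest level class. Nlgn2, the adhesion protein of inhibitory synapses, was among those 6, with 15.6, 16.6 and 17.9 CPM in HDACi-CFC libraries, against 5.63, 3.77 and 3.13 CPM in HDACi-Context libraries (edgeR adjusted p = 4.2e-08).

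In the signalling lists, calcium, cyclic AMP and CREB genes had 19 of 35 higher (median 0.49, and -0.0012 with factors from promoter peaks), with Camkk1, Pde4a and Camk2b at 1.20, 1.38 and 1.26. Ras and MAP kinase genes had 12 of 27 higher (median 0.32, but -0.17 with those factors). Mapk3, which encodes ERK1, had the lowest p among them and 42.6, 53.5 and 52.8 CPM in HDACi-CFC libraries, against 21.6, 18.0 and 11.3 CPM in HDACi-Context libraries (log2 difference 1.54 ± 0.165, SE; edgeR adjusted p = 1.7e-07). The mTOR and translation list had 11 of 26 higher (median 0.32, but -0.17 with those factors), with Eif4g1 and Cyfip2 at 1.16 and 0.76, and Akt1 at 3.09 ± 0.336, with 7.07 to 7.73 CPM in HDACi-CFC and 0.408 to 1.25 CPM in HDACi-Context libraries. Neurotrophins, growth factors and receptors had 11 of 20 higher (median 0.69), among them Ntf3, Ntrk3 and Fgf9. As reported, none of these 4 lists had a member called lower. With factors from promoter peaks, 9 calcium and cyclic AMP genes, 12 Ras and MAP kinase genes, 8 mTOR genes and 4 neurotrophin-list genes were lower, against 9, 5, 5 and 7 higher, and with library totals 2 mTOR genes and 1 neurotrophin-list gene were lower.

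The genes of the deacetylases that the drug acts on were read with their partners, and 18 of 31 deacetylase and corepressor genes were higher and none lower (median 0.48, and -0.0034 with factors from promoter peaks). Among the class I enzymes, Hdac3 had 12.6, 13 and 12.0 CPM in HDACi-CFC libraries, against 6.19, 4.93 and 4.76 CPM in HDACi-Context libraries, with no overlap (log2 difference 1.25 ± 0.153, SE; edgeR adjusted p = 2.5e-08). Hdac1 had 13.5, 16.4 and 15.2 CPM in HDACi-CFC libraries, against 9.52, 10.1 and 8.84 CPM in HDACi-Context libraries (0.65 ± 0.142, SE; edgeR adjusted p = 3.5e-04), and its lower promoter peak was not called (0.35; edgeR adjusted p = 0.26). Hdac2, the enzyme most linked to memory in mice, had 5.43, 4.89 and 7.23 CPM in HDACi-CFC libraries and 5.63, 6.03 and 7.01 CPM in HDACi-Context libraries, which overlap (-0.08 ± 0.186, SE; edgeR adjusted p = 0.75). The class IV enzyme gene Hdac11, the class II gene Hdac7 and the NuRD remodeller gene Chd3 rose by 1.23, 1.15 and 1.12. Acetyltransferases and acetyl readers had 12 of 20 higher (median 0.64), among them Kat2b (1.02 ± 0.175), Baz2a (0.94 ± 0.148) and Brd1 (0.83 ± 0.144).

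Circadian clock genes had 17 of 21 higher and none lower (median 0.63), and genes of the glucocorticoid response 17 of 22 (median 0.69). Per1, which stands in both lists as a clock repressor that glucocorticoids induce, had 67.5, 69.3 and 64.9 CPM in HDACi-CFC libraries, against 30.5, 25.7 and 20.4 CPM in HDACi-Context libraries (log2 difference 1.40 ± 0.122, SE; edgeR adjusted p = 1.4e-11). Dbp, a clock output factor, had 35.4, 37.3 and 37.1 CPM in HDACi-CFC libraries, against 13.6, 12.1 and 10.8 CPM in HDACi-Context libraries (1.59 ± 0.141, SE; edgeR adjusted p = 5.3e-11). The stress-induced mTOR inhibitor gene Ddit4 rose by 0.80 ± 0.102, and the lipid droplet gene Plin4 by 1.42 ± 0.170. Of the housekeeping lists, cytosolic ribosomal proteins had 28 of 49 higher (median 0.40, but -0.08 with factors from promoter peaks) and the respiratory chain 25 of 56 (median 0.35, but -0.14), with none lower in either.

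Synaptic adhesion and axon guidance genes, many of which are very long, split by position. Their promoters had 21 of 39 higher and none lower (median 0.37, but -0.12 with factors from promoter peaks), with Nrp2, Slit1 and Nlgn3 at 1.45, 1.27 and 1.02. Of the 1360 other peaks named for them, 54 were higher and 735 lower (median -0.55), against 15.8% higher and 20.5% lower of all peaks outside promoters. GABA receptor genes had 20 higher and 150 lower of 301 such peaks, and glutamate receptor genes 53 higher and 196 lower of 558. Immediate early factors had 74 higher and 33 lower of 239. Long genes have more such peaks, and the part of gene length in these counts was not tested.

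**Figure D4:**
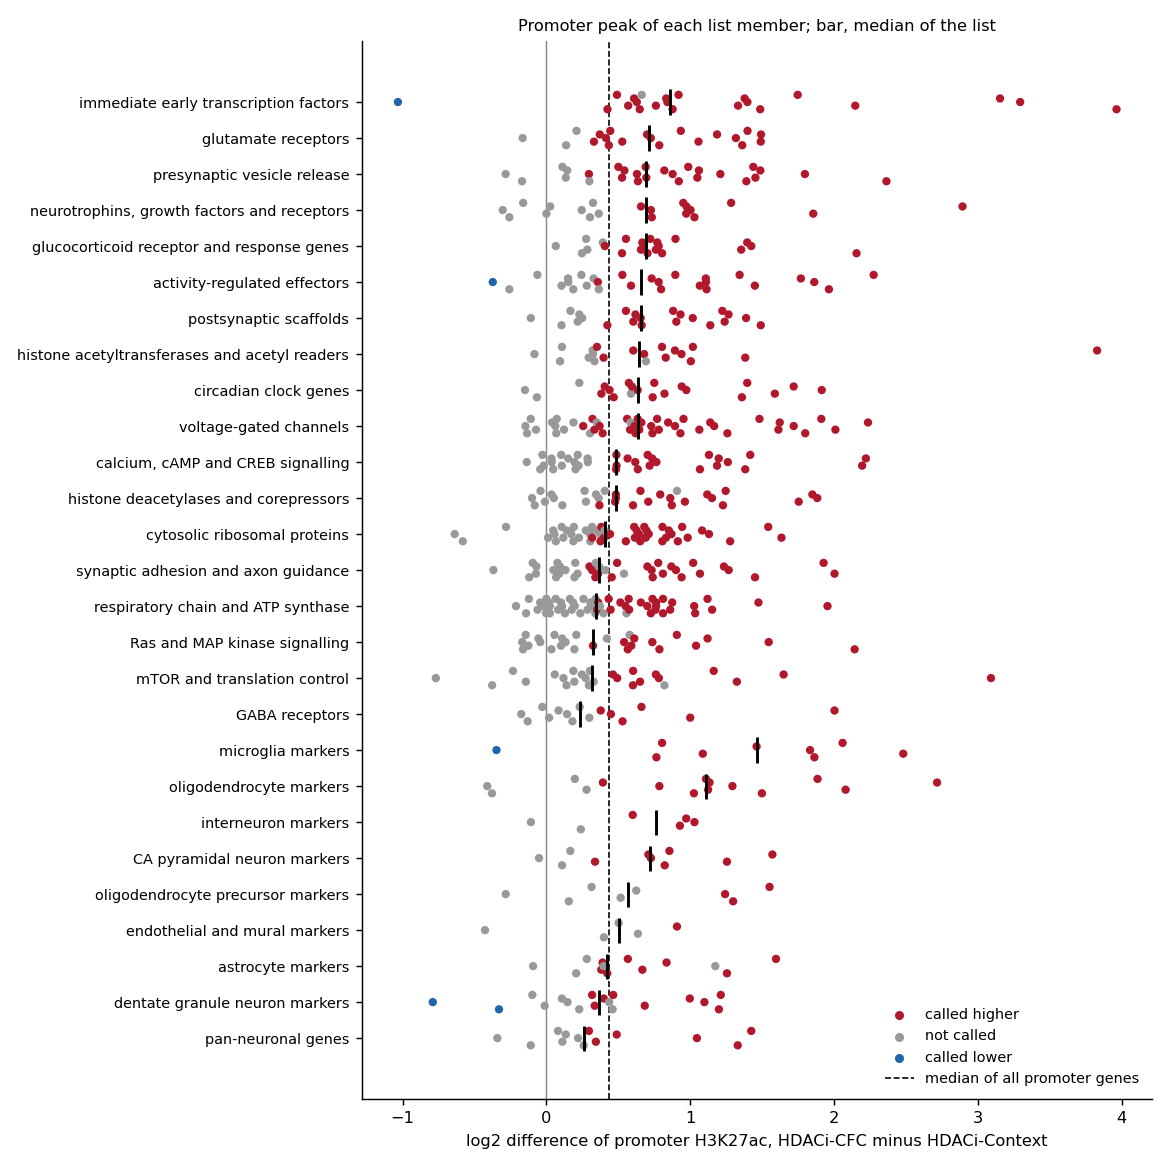
Log2 difference of promoter H3K27ac, HDACi-CFC minus HDACi-Context, for each measured member (point) of 27 gene lists; short bars are list medians and the dashed line is the median of all 14154 promoter genes, 0.44. Most immediate early factors lie to the right of the line (median 0.86), Egr4 stands alone at -1.03, and GABA receptors lie to the left of it (0.23, but -0.26 with factors from promoter peaks).

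The named rises and drops were chosen by the size of the difference, among called peaks without overlap and with at least a median level over all 12 libraries. The promoter peaks with the largest rises held few reads in context mice, which follows in part from that choice. Their ratios, intervals and p-values describe the chosen peaks and are not a further test. The peak at Fmn2, an actin nucleator of neurons, at chr1:174502128-174503342, had 116, 67 and 79 reads in HDACi-CFC libraries, against 3, 3 and 1 in HDACi-Context libraries. Scaled by library, the ratio of the sums was 49.1 (95% counting interval 23.5 to 123), and its fitted log2 difference, 5.51 ± 1.03 (SE; edgeR adjusted p = 0.0034), depends on the prior count at such low values. Mamld1 on chromosome X had 93, 57 and 86 reads in HDACi-CFC libraries, against 8, 2 and 5 in HDACi-Context libraries (ratio 20.6, interval 12.3 to 37.5). Brd2, which encodes a reader of acetylated histones, had 181, 162 and 157 reads in HDACi-CFC libraries, against 27, 12 and 7 in HDACi-Context libraries (ratio 14.3, interval 10.5 to 19.7). HDACi-Context replicate 3 was the lowest library at 8 of the 10 named promoter rises.

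Zfp651, Gm11762, Rhbdl1, Pik3r2, Mxi1, Gp1bb and Anp32a completed the 10 largest rises, with ratios of 9.38 to 14.1. Anp32a, which encodes a chromatin protein that shields histones from acetyltransferases, was the most even of them, with 147, 111 and 138 reads in HDACi-CFC libraries, against 15, 22 and 18 in HDACi-Context libraries (3.23 ± 0.228, SE; edgeR adjusted p = 1.2e-13). Mxi1, a partner of MAX that opposes MYC, rose by 3.31 ± 0.323 (SE; edgeR adjusted p = 5.6e-07). In vehicle libraries the same 10 peaks differed by 1.43 to 3.02 between Veh-CFC and Veh-Context, and 4 of them passed the threshold.

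The largest promoter drops were much smaller. Gfral, the receptor for the growth factor GDF15, had 39, 32 and 46 reads in HDACi-CFC libraries, against 96, 147 and 131 in HDACi-Context libraries (ratio 0.41, interval 0.331 to 0.506). It fell by 1.27 on the log2 scale (SE 0.196; edgeR adjusted p = 2.2e-06). The other 9 (4933402D24Rik, 5330439B14Rik, Olfr535, Gm4861, Plac8l1, Limch1, Pard3, Gm4668 and Mir6380) had ratios of 0.46 to 0.545.

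Away from promoters, none of the 10 largest rises but 7 of the 10 largest drops were intergenic. Intergenic peaks made up 30.2% of all tested peaks and 11295 of the 25571 lower ones. The largest rise, at chr19:10245625-10248057, was named for Myrf, the master factor of myelin genes. It had 131, 73 and 79 reads in HDACi-CFC libraries, against 9, 3 and 1 in HDACi-Context libraries (ratio 28.6, interval 16.4 to 54.3). The peak was annotated to a 3′ UTR, but its deposited distance of -6093 bp lies upstream of the Myrf TSS, so it is not read as a UTR of Myrf. 2310011J03Rik, Pias4, Midn, Gas2l1, Fuz, Dalrd3, Arhgap27 and Zbtb7a followed with ratios of 8.67 to 21.6. Trim30a was the least stable, with 299, 64 and 94 reads in HDACi-CFC libraries and 18, 9 and 20 in HDACi-Context libraries, and its edgeR adjusted p of 0.049 became as much as 0.17 without any 1 of these 6 libraries, Veh-CFC replicate 2 or 3 or Veh-Context replicate 1. Control-state peaks made up 32.2% of all tested peaks and 12590 of the 25571 lower ones, and 8 of the 10 drops carried that state. Among them, a peak nearest to Grin2a, an NMDA receptor gene, had 31, 25 and 32 reads in HDACi-CFC libraries, against 97, 144 and 105 in HDACi-Context libraries (ratio 0.334, interval 0.261 to 0.423). A peak in an intron of Adk, which encodes adenosine kinase, had 28, 16 and 19 reads in HDACi-CFC libraries, against 68, 108 and 92 in HDACi-Context libraries (ratio 0.308, interval 0.231 to 0.407). The steepest drop was at a peak named for Mir6336 but 536396 bp from its TSS (ratio 0.22, interval 0.156 to 0.302). Peaks named for 4930433B08Rik, Gpm6a, Tafa1, Tmem229a, 4930503O07Rik, Lrrc4c and 1700012D14Rik had ratios of 0.324 to 0.347. These too lay far from the named TSS, with deposited distances of 51426 bp for the closest (4930433B08Rik) and -314915 bp for the farthest (Lrrc4c).

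The shock effect under vehicle had the same direction and fewer calls. There, 10300 peaks (7.15%) were called, 6354 higher (4.41%) and 3946 lower (2.74%), and 16.4% of promoter genes were higher. Of those vehicle calls, 5722 higher peaks (90.1% of the vehicle and 19.7% of the drug calls) and 3068 lower peaks (77.7% of the vehicle and 12.0% of the drug calls) were called in the same direction under CI-994, and none in the opposite one. A difference in the number of calls does not show that the effects differ. Tested directly, the shock effect under CI-994 differed from that under vehicle at 50 peaks (0.0347%), 49 with a positive drug-minus-vehicle difference (0.0340%) and 1 with a negative one (0.000694%), while 11.5% had an unadjusted p under 0.05. None of the 49 was called in every fit with a library left out. Positive differences then numbered 3477 without HDACi-Context replicate 1, 2363 without Veh-CFC replicate 1, 834 without Veh-Context replicate 1 and 0 to 9 without any of the other 9 libraries. By DESeq2 there were 872.

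Nr4a2 and Anp32a were among the 49. Nr4a2 had 10.2, 5.51 and 5.80 CPM in Veh-CFC libraries, against 2.09, 3.24 and 3.97 CPM in Veh-Context libraries, so its HDACi-Context libraries lay below every other library. The shock effect was 3.15 under CI-994 and 1.20 under vehicle, and the difference was 1.95 ± 0.366 (SE; edgeR adjusted p = 0.037). This holds for the peak away from the RefSeq start only. At the pair of lower Nr4a2 promoter peaks beside that start the difference was 0.13 and 0.21 and was not called (edgeR adjusted p = 0.94 and 0.95). HDACi-Context libraries were also the lowest at Anp32a (difference 1.64 ± 0.321, SE; edgeR adjusted p = 0.037). They were the lowest too at a peak named for Bcor, which encodes a corepressor of BCL6 (2.89 ± 0.542, SE; edgeR adjusted p = 0.037). That peak lay 23542 bp from the Bcor TSS. The difference was 1.71 at a peak 5504 bp from the Mir3080 TSS and 1.61 at a peak that spanned the Mir6999 TSS. The peak named for Bcor had 4.85, 4.47 and 3.44 CPM in HDACi-CFC libraries, against 0.695, 0.174 and 0.136 CPM in HDACi-Context libraries. For Fosb and Arc the difference was 1.39 and 0.76 and was not called (edgeR adjusted p = 0.12 and 0.47), and for Fos it was 0.05 (edgeR adjusted p = 0.96).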

How the data were processed

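H3K27ac ChIP-seq libraries came from about 750000 sorted nuclei each, per the labels' protocols. The authors deposited whole-number read counts per peak, and the values show no normalisation. No column holds a 0, and 3620 cells hold a 1, the lowest count, which points to zeros replaced by 1. Per the submitters' processing notes, DESeq2 1.28.1, DiffBind 2.16.2, HOMER 4.11, MACS2, SAMtools 1.9, Bowtie2 2.3.5, Trimmomatic 0.38 and mm10 were used; their roles are not given in the sources used here. The file headers also give a percent for each chromatin state, which the authors deposited without a description and which was not used, and widths and distances in base pairs. Column names carry no antibody and were taken as the H3K27ac libraries; input libraries were not analysed here. The series text gives other numbers of treatments and replicates than the labels, which were followed.

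Counts were analysed with edgeR 4.0.16 in R 4.3.3 (TMM factors, filterByExpr with a minimum count of 10, robust quasi-likelihood fit with 1 mean per group over 12 libraries, 8 residual degrees of freedom); 140 peaks were removed. The script was tested on simulated data. The deposited distance to the TSS was read as that of the peak centre, from which the edge was computed. Shares of counts were compared by exact permutation. Ratios of summed counts have exact intervals that cover counting error only. Named peaks were the 10 largest rises and 10 largest drops at promoters and elsewhere among called peaks with no overlap and at least a median level, up to 3 members of each list in each direction by p, 15 fixed genes, and up to 5 differences between drug and vehicle in each direction. Some genes that this rule names are not reported here. The members, lists and tests were chosen with earlier results of these data known. Same-numbered libraries were not paired (correlations of deviations 0.0439, 0.076 and -0.0301).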

Additional observations from a re-analysis of the deposited data

Results flagged for a closer look

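The shock effect under CI-994 was tested against that under vehicle at every peak, and the results that passed are listed for a second look. There were 49 peaks with a positive drug-minus-vehicle difference and 1 with a negative one; at 4 of the 50 the vehicle estimate was below 0. Among the named peaks, the drug-minus-vehicle difference on the log2 scale was 2.89 at a peak 23542 bp from the Bcor TSS and 1.95 at Nr4a2. The lower Nr4a2 promoter peaks beside its RefSeq start had differences of 0.13 and 0.21, which were not called. The difference was 1.71 near Mir3080, 1.64 at Anp32a, 1.61 at Mir6999 and 1.02 at Dbp. The peak nearest Xcl1 went the other way, at -1.68: it had 2.32, 1.56 and 2.10 CPM in HDACi-CFC and 3.82, 5.04 and 5.03 CPM in HDACi-Context libraries, against 5.14, 3.08 and 4.39 CPM in Veh-CFC and 3.21, 1.91 and 3.38 CPM in Veh-Context libraries. All 50 were also called under CI-994 alone in the same direction, and 24 under vehicle alone. The adjusted p of each of the 6 with the largest differences reached 0.33 to 0.36 with a library left out, and each lost its call without any of the 12 libraries other than replicate 1 of HDACi-Context, Veh-CFC and Veh-Context.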

How the results depend on the processing

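The counts of calls depended on the scaling. With TMM factors from control-state peaks, 8657 peaks were lower, of which 77 at promoters and 8580 elsewhere, and 29489 other peaks were higher. With factors from promoter peaks, 12580 peaks were higher (4455 at promoters, 8125 elsewhere) and 73357 lower (4645 and 68712). With library totals, 950 promoter peaks were lower. By DESeq2, 15699 peaks were lower (183 at promoters, 15516 elsewhere); with thinned counts, 14925 (221 and 14704); at an adjusted p under 0.01, 13293 (138 and 13155). With a minimum count of 50, 18075 peaks were higher, 10491 of them outside promoters. With promoters as TSS-spanning peaks, 3225 were higher and 159 lower. With a library left out, lower peaks ran from 16401 to 27767, at promoters from 195 to 573 and elsewhere from 16182 to 27270. The positive drug-minus-vehicle differences, 49 as reported, numbered 95 with RLE factors, 1 with library totals, 1 with loess offsets, 1695 and 0 with factors from control-state and promoter peaks, 872 by DESeq2, 1 at a minimum count of 50, 127 with thinned counts, 1 at an adjusted p under 0.01 and 0 to 3477 with a library left out. The negative ones, 1 as reported, numbered 5, 0, 0, 17, 0, 2, 0, 2, 0 and 0 to 254 in the same order. The cause was not tested. The replicate block gave 28704 higher and 24947 lower peaks, with 86 and 3 differences; same-numbered libraries share only a number. The promoter share difference stayed between 5.94 and 6.59 percentage points with a drug library left out and was positive in every setting. For TSS-spanning peaks alone, a part of the promoter peaks, it was 2.85 (11.1% in HDACi-CFC and 8.26% in HDACi-Context libraries).

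Of the named genes, Homer1 turned to -0.0232 with library totals, -0.0510 with loess offsets and -0.38 with factors from promoter peaks, and Hdac2 turned to 0.16 with factors from control-state peaks, 0.0177 without HDACi-CFC replicate 2 and 0.0081 without HDACi-Context replicate 3; neither was called as reported, and no called peak turned. With factors from promoter peaks, effectors had 11 higher and 6 lower promoters, deacetylases and corepressors 10 and 6, acetyltransferases and readers 6 and 1, clock genes 9 and 2, glucocorticoid-response genes 6 and 1, ribosomal genes 11 and 11, respiratory genes 6 and 14, GABA receptors 2 and 7 and adhesion genes 9 and 12. The median of all promoter genes was then -0.05, and that of immediate early factors 0.37, glutamate receptors 0.23, GABA receptors -0.26, adhesion genes -0.12 and granule markers -0.12. Of the higher and lower peaks, 62.7% and 40.8% were called in every fit with a library left out.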

Other observations

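The highest peak named for Lrrc4c, other than the one described above, had 67.3, 135 and 93.5 CPM in HDACi-CFC libraries, against 20.9, 8.35 and 10.9 CPM in HDACi-Context libraries, and 173, 138 and 212 CPM in Veh-CFC libraries, against 38.1, 73.0 and 25.6 CPM in Veh-Context libraries. It is called a satellite-like peak, a name that was not checked against repeats here, and its counts are not read as those of the gene. It stayed in the fit, the calls and the reported shares of counts. Leaving it and the sex chromosomes out moved the promoter share difference to 6.26 percentage points.

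Whole chromosomes differed too. Chromosome 11 had 28.9% of peaks higher and 10.9% lower, and chromosome 17 had 29.2% higher and 11.6% lower. Chromosome 3 had 11.4% higher and 26.5% lower. The 1000 highest peaks held 13.8% ± 0.417 of counts in HDACi-CFC and 10.6% ± 0.497 in HDACi-Context libraries (n = 3 each, SD; p = 0.1 by exact permutation).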
